A study of Danio rerio with 20 samples.

Results

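The zebrafish genome carries a large family of collagen genes, and 57 of them were found among the 32520 gene IDs of the count table by their symbols, which have the form col, a type number, a and a chain number. They were sorted by type number into 10 fibrillar genes, 11 cartilage genes, 12 basement membrane genes and 24 others. RNA was counted in larvae of 4 genotypes, all made in the Tg(fli1:EGFP) line, in which the fli1 promoter drives green fluorescent protein in endothelial cells. The genotypes were WT, ALDH3A1KO (knockout of aldh3a1, an aldehyde dehydrogenase gene), GLO1KO (knockout of glo1, which encodes the methylglyoxal-detoxifying enzyme glyoxalase 1) and DKO (knockout of both), with 5 libraries each. The knockouts were made with CRISPR/Cas9. The sources used here do not give the age of the larvae, the alleles or the number of larvae in a library.

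Each library held 35092716 to 37190519 counts, and collagen genes took 0.695% to 1.1% of them. Values are given as CPM (counts scaled to library size, with TMM factors), which are not corrected for gene length, so levels are compared between genotypes and not between genes. The targeted glo1 lay at 62.2 to 71.4 CPM in WT and 74.9 to 81.7 in ALDH3A1KO, against 3.28 to 4.22 in GLO1KO and 3.38 to 5.35 in DKO. Counts of aldh3a1 were not analysed here, so the ALDH3A1KO and DKO labels were not checked for that gene. Markers of cartilage, bone, fibroblasts and tendon, epidermis, endothelium, notochord, fast muscle and lens were detected, though not every listed gene. Of the bone markers bglap was at 0 in all libraries. Enough counts to test were held by 7 of 9 bone, 13 of 14 cartilage and 14 of 15 fibroblast and tendon markers. Of the listed symbols, 7 of 8 endothelial and 10 of 12 fast muscle ones were matched to a gene ID. WT replicate 5 stood apart for these genes: it was the lowest of the 5 WT libraries for 38 of the 56 collagen genes tested, against 22.7% of all genes tested, and the highest for 0 of them.

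Collagens are secreted proteins of 3 chains wound into a triple helix, and each gene encodes a chain. Fibrillar collagens (here types I, V, XXIV and XXVII) give skin, tendon, bone and fins their tensile strength. Cartilage is built on type II fibrils that carry types IX and XI, with type X in maturing cartilage and, in fish, in bone-forming cells. Basement membranes, the sheets under epithelia and around vessels and muscle fibres, rest on a network of type IV collagen, with types VII, XV and XVIII in the zone around it. The remaining types coat fibrils, span cell membranes or form beaded filaments and hexagonal networks.

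Loss of aldh3a1 alone was accompanied by lower transcripts of most collagen genes tested. The basement membrane class had the smallest share of lower genes, 6 of 12 (50%), and 3 of the 12 were lower without overlap. Of the 56 collagen genes with enough counts to test, 37 were lower in ALDH3A1KO than in WT, 3 were higher and 16 did not pass (edgeR quasi-likelihood test, Benjamini-Hochberg adjusted p under 0.05 over 22234 genes). Over all genes tested, 32% were lower and 29.4% higher, against 66.1% and 5.36% of the collagen genes. The median log2 fold change was -0.39 for the collagen genes and -0.0010 for all genes. Libraries of the 2 genotypes did not overlap for 23 lower and 2 higher of the 56 collagen genes. Over the 22234 genes tested these were 5134 (23.1%) and 4452 (20%). Of the 56 tested, 9 were lower by at least 1 on the log2 scale, a share near the 13.7% of all genes tested. Among lower genes alone, these were 9 of the 37 collagen genes, against 3040 of 7110 over all genes, so large falls were not more common among the collagens. The call was kept for 33 of the 37 under each of the 30 alternative settings and left-out libraries. The exceptions were col1a1a, col1a2, col4a5 and col7a1. Without WT replicate 2, 5 collagen genes in place of 3 were higher (8.93%, against 28.1% of all genes).

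**Figure D1:**
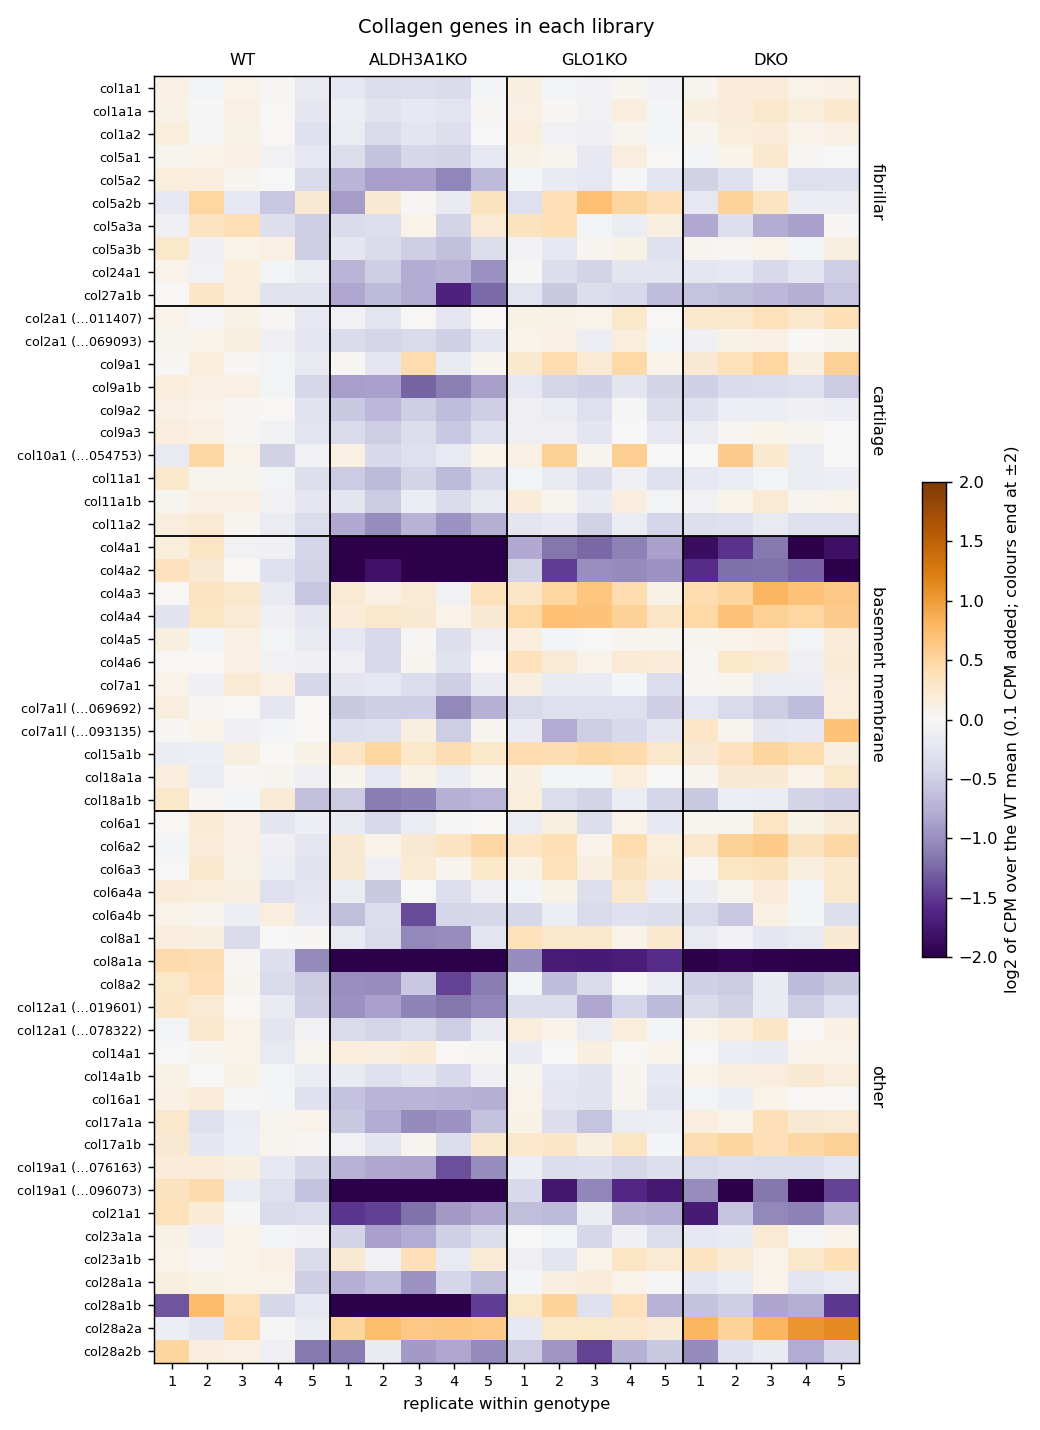
Each row is 1 of the 56 tested collagen genes and each column 1 library; colour gives the log2 of CPM over the WT mean, with 0.1 CPM added. Colours end at a limit of 2 in either direction. The darkest purple cells, at the lower limit, include most of those of col4a1, col4a2, col8a1a, col19a1 (ENSDARG00000096073) and col28a1b in ALDH3A1KO. A few DKO cells also reach it, such as col19a1 (ENSDARG00000096073) in replicate 2 and col8a1a in replicates 1 and 5. In 44 of the 56 rows (78.6%) ALDH3A1KO has the lowest genotype mean, against 33.1% of all genes tested.

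The mean level of each class was lower in ALDH3A1KO than in WT. The mean log2 CPM of the 10 fibrillar genes, relative to the WT mean, lay from -0.60 to -0.28 in the 5 ALDH3A1KO libraries and from -0.23 to 0.13 in WT. For the 10 tested cartilage genes it lay from -0.55 to -0.30, against -0.24 to 0.15 in WT. The basement membrane genes had -0.74 to -0.43, against -0.23 to 0.09, and the other collagens -0.82 to -0.57, against -0.27 to 0.18. By gene, 8 of 10 fibrillar (80%), 7 of 10 cartilage (70%), 6 of 12 basement membrane (50%) and 16 of 24 other collagens (66.7%) were lower. Higher were 0, 0, 1 and 2, where 32% of all genes were lower and 29.4% higher. Genes lower without overlap of libraries numbered 3, 6, 3 and 11, against 23.1% of all genes. The median log2 fold changes were -0.32, -0.40, -0.19 and -0.59 in that order. The basement membrane mean includes col4a1 and col4a2, which fell by 2.68 and 2.33. By this mean, which weighs each gene alike, the 5 ALDH3A1KO libraries lay below the 5 WT libraries in each class, while GLO1KO and DKO libraries overlapped the WT range. In summed CPM, ALDH3A1KO and WT overlapped for fibrillar genes (3441 to 4268 against 3746 to 4809) and basement membrane genes (501 to 599 against 549 to 649). The sums of cartilage genes (2566 to 3026 against 3157 to 4114) and other collagens (565 to 664 against 703 to 833) did not overlap. In bulk RNA such as this, fewer cells of a type and less RNA per cell cannot be told apart.

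**Figure D2:**
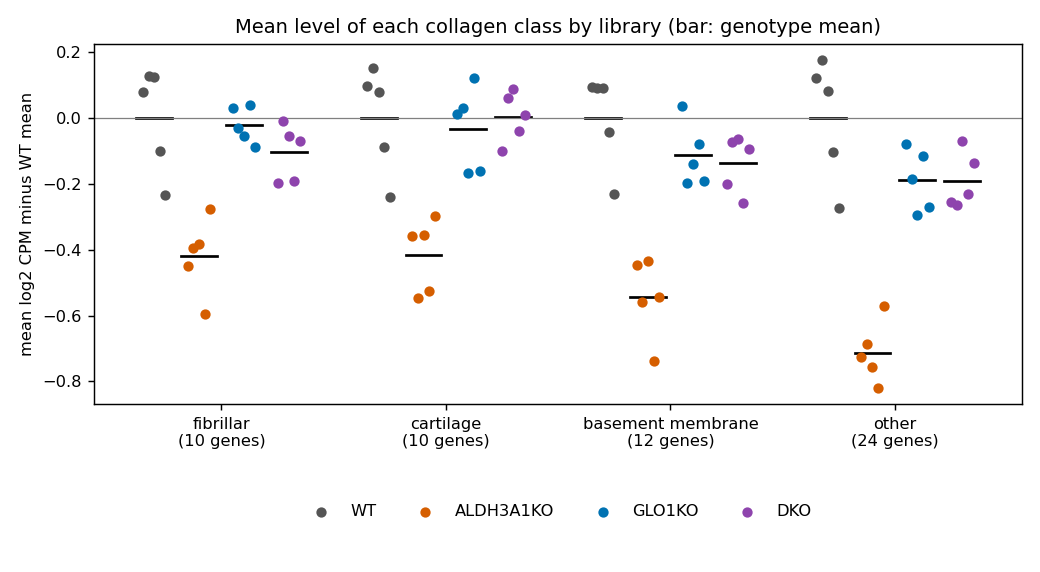
Points are libraries, the vertical axis is the mean log2 CPM of a class minus its WT mean, and bars are genotype means. ALDH3A1KO means were -0.42 for the fibrillar, -0.42 for the cartilage, -0.54 for the basement membrane and -0.71 for the other genes, and the DKO means were -0.10, 0.00, -0.14 and -0.19.

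Among fibrillar collagens, the chains of type I, the main collagen of skin, bone and tendon, were lower in ALDH3A1KO by a small amount. The gene col1a1 (ENSDARG00000035809, listed without a or b) was measured at 1696, 1494, 1647, 1575 and 1374 CPM in WT replicates 1 to 5, 1343, 1232, 1245, 1211 and 1511 in ALDH3A1KO, 1705, 1492, 1487, 1613 and 1481 in GLO1KO, and 1597, 1763, 1766, 1658 and 1689 in DKO. ALDH3A1KO replicate 5 lay inside the WT range and the other 4 replicates lay below it, with a log2 fold change of -0.25 (SE 0.07, edgeR adjusted p = 0.00178). The other type I chains were close to the threshold. Col1a1a had -0.16, edgeR adjusted p = 0.0360, and the call was lost without WT replicates 1, 3 or 4 (-0.14, -0.13 and -0.16) or ALDH3A1KO replicates 2, 3 or 4 (-0.13, -0.15 and -0.13). Col1a2 had -0.21, edgeR adjusted p = 0.0144, and the call was lost without WT replicate 1 (-0.17) or ALDH3A1KO replicate 4 (-0.18). In all 20 libraries the log2 ratio of any 2 type I chains stayed between -0.13 and 0.11 of its WT mean. The fold changes of these chains were themselves small, so this range does not show whether the chains moved by the same amount.

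Some minor fibrillar chains had larger fold changes. Type V collagen starts and limits the growth of type I fibrils. Its chain gene col5a2 was measured at 154, 153, 141, 137 and 106 CPM in WT replicates 1 to 5, 84.1, 75.1, 76.1, 66.7 and 87.1 in ALDH3A1KO, 135, 123, 119, 136 and 116 in GLO1KO, and 100.001, 113, 132, 112 and 113 in DKO. All ALDH3A1KO libraries were below all others, and col5a2 fell by 1.78-fold (log2 fold change -0.83, SE 0.09, edgeR adjusted p = 6.77e-08). Col5a1 fell with a log2 fold change of -0.40 (SE 0.08) and col5a3b with -0.40 (SE 0.11), with overlapping libraries. Col24a1 and col27a1b, fibril-forming collagens of developing skeleton, fell without overlap, with log2 fold changes of -0.74 (SE 0.12) and -1.04 (SE 0.18). The low-count chains col5a2b and col5a3a did not pass, at -0.04 (SE 0.26) and -0.15 (SE 0.23). In all, 8 of the 10 fibrillar genes were lower and 0 higher, against 32% and 29.4% of all genes.

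Of the 10 cartilage collagens tested, 7 were lower in ALDH3A1KO and 0 higher, against 32% and 29.4% of all genes. One copy of the type II chain, the main cartilage collagen, col2a1 (ENSDARG00000069093), fell with -0.38 (SE 0.07, edgeR adjusted p = 3.98e-05). The other copy, col2a1 (ENSDARG00000011407), did not pass, at -0.10 (SE 0.06). Type IX collagen decorates type II fibrils. Its chain gene col9a1b was measured at 443, 429, 428, 379 and 298 CPM in WT replicates 1 to 5, 215, 217, 164, 183 and 215 in ALDH3A1KO, 340.4, 294, 285, 335 and 289.971 in GLO1KO, and 283, 308, 308, 321 and 274 in DKO. Its ALDH3A1KO libraries all lay below every library of the other genotypes, and it fell by 1.99-fold (log2 fold change -0.99, SE 0.10, edgeR adjusted p = 1.52e-08). Col9a2 fell with -0.57 (SE 0.07) and col9a3 with -0.41 (SE 0.07), while the gene listed as col9a1 had 0.04 (SE 0.11). Type XI chains sit in the core of cartilage fibrils, and col11a2 fell with -0.85 (SE 0.09), col11a1 with -0.53 (SE 0.08) and col11a1b with -0.29 (SE 0.08). Of the type X genes, col10a1 (ENSDARG00000054753) had -0.12 (SE 0.18) and did not pass, and col10a1 (ENSDARG00000101535), with 2 to 27 counts a library, was the only collagen gene below the filter.

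Type IV collagen genes differed among themselves in ALDH3A1KO, with log2 fold changes from -2.68 to 0.20. In RefSeq's GRCz12tu annotation its 6 chain genes stand as neighbours in 3 pairs, col4a1 with col4a2, col4a3 with col4a4 and col4a5 with col4a6. The first pair encodes the chains found in nearly all basement membranes, including those of blood vessels. Col4a1 was measured at 12.8, 14.1, 10.9, 10.7 and 8.45 CPM in WT replicates 1 to 5, 2.26, 1.57, 2.22, 1.49 and 1.32 in ALDH3A1KO, 6.48, 4.997, 4.702, 5.32 and 6.21 in GLO1KO, and 3.09, 3.87, 5.11, 2.65 and 3.16 in DKO. The ALDH3A1KO libraries lay below all libraries of the other genotypes, the WT libraries lay above all others, and GLO1KO and DKO overlapped each other between them. Col4a1 fell by 6.39-fold in ALDH3A1KO (log2 fold change -2.68, SE 0.18, edgeR adjusted p = 6.23e-11), 2.05-fold in GLO1KO (-1.04, SE 0.17, edgeR adjusted p = 8.08e-05) and 3.18-fold in DKO (-1.67, SE 0.17, edgeR adjusted p = 5.09e-08).

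Col4a2 followed the same order of group means. It was measured at 12.98, 11.9, 10.3, 8.295 and 7.41 CPM in WT replicates 1 to 5, 2.49, 2.83, 2.25, 1.17 and 1.35 in ALDH3A1KO, 7.34, 3.59, 5.07, 4.95 and 5.197 in GLO1KO, and 3.38, 4.36, 4.36, 4.09 and 2.48 in DKO. WT again lay above all other libraries, while ALDH3A1KO and DKO overlapped. Col4a2 fell with log2 fold changes of -2.33 (SE 0.23) in ALDH3A1KO, -0.96 (SE 0.21) in GLO1KO and -1.45 (SE 0.22) in DKO. Relative to WT, the log2 ratio of col4a1 to col4a2 averaged -0.31 ± 0.43 in ALDH3A1KO, -0.06 ± 0.27 in GLO1KO and -0.24 ± 0.37 in DKO (SD, n = 5 each). The WT libraries ranged from -0.19 to 0.19 (SD 0.15). The ALDH3A1KO and DKO means lay below that range, while single libraries of both overlapped it. A change of this ratio was not tested.

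The other type IV pairs lay closer to WT in ALDH3A1KO. Col4a3 and col4a4 encode chains known from kidney and other specialised basement membranes. Col4a4 was measured at 3.86, 5.78, 5.44, 4.34 and 3.99 CPM in WT replicates 1 to 5, 5.29, 5.61, 5.49, 4.98 and 5.49 in ALDH3A1KO, 6.503, 7.72, 7.55, 6.85 and 5.77 in GLO1KO, and 6.49, 7.67, 6.92, 6.59 and 7.13 in DKO. In ALDH3A1KO neither passed, at 0.18 (SE 0.14) for col4a3 and 0.20 (SE 0.12) for col4a4. In DKO both were above all WT libraries, with 0.62 (SE 0.14) and 0.57 (SE 0.12), and col4a4 was also higher in GLO1KO (0.55, SE 0.12). Of the third pair, col4a5 had -0.19, edgeR adjusted p = 0.0192 in ALDH3A1KO, a call lost without WT replicates 1 or 3 (-0.16 each) or ALDH3A1KO replicates 2 or 4 (-0.15 each), and col4a6 did not pass (-0.13, SE 0.08).

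**Figure D3:**
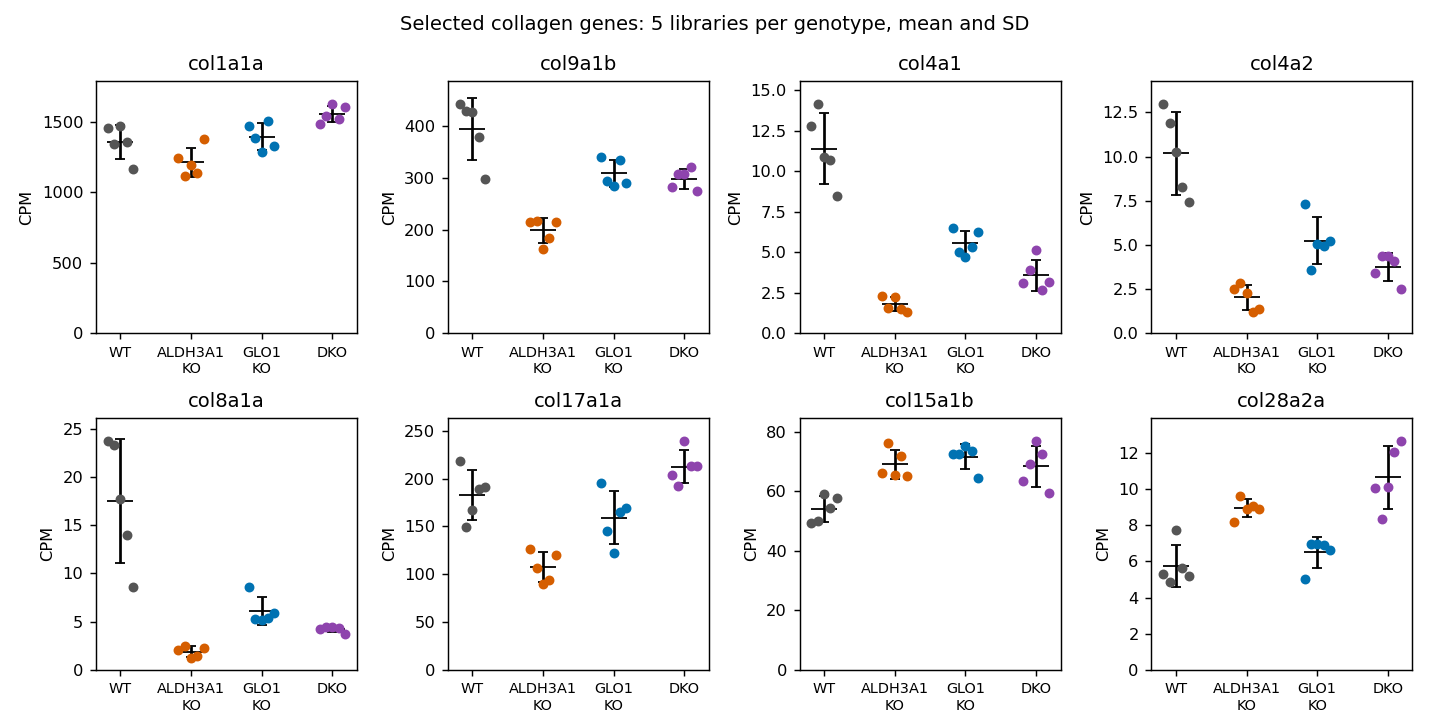
CPM of 8 collagen genes by genotype, each axis starting at 0; points are the 5 libraries in replicate order, bars the mean and SD. Col4a1, col4a2 and col8a1a were highest in WT and lowest in ALDH3A1KO, while col15a1b was higher in all 3 knockouts and col28a2a in ALDH3A1KO and DKO.

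Around the type IV network, types VII, XV and XVIII split by gene. Type VII collagen forms the fibrils that anchor the epidermis to the dermis, and its copy col7a1l (ENSDARG00000069692) fell in ALDH3A1KO with -0.65 (SE 0.13) without overlap, while col7a1l (ENSDARG00000093135) had -0.18 (SE 0.17). Whether these copies share reads is not known. Col7a1 had -0.29, edgeR adjusted p = 0.0160, a call lost without WT replicate 3 or ALDH3A1KO replicate 4 (-0.23 each). Types XV and XVIII are proteoglycan collagens whose end fragments, such as endostatin from type XVIII, are known to restrain vessel growth. Col18a1b fell with -0.82 (SE 0.16) and col18a1a had -0.03 (SE 0.07).

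Col15a1b was the only basement membrane collagen that was higher in ALDH3A1KO. It was measured at 49.2, 49.9, 58.98, 54.4 and 57.7 CPM in WT replicates 1 to 5, 66.1, 76.3, 65.5, 71.9 and 65.2 in ALDH3A1KO, 72.6, 72.4, 75.3, 73.5 and 64.4 in GLO1KO, and 63.6, 69.2, 76.97, 72.5 and 59.4 in DKO. Every knockout library lay above every WT library. It rose with 0.35 (SE 0.07, edgeR adjusted p = 1.12e-04) in ALDH3A1KO, 0.41 (SE 0.07, edgeR adjusted p = 1.58e-04) in GLO1KO and 0.34 (SE 0.07, edgeR adjusted p = 2.77e-04) in DKO, so the rise in DKO was smaller than the single rises added together (interaction -0.42, SE 0.10, edgeR adjusted p = 0.00211). Among collagen genes it was also the only one with an interaction below 0 that passed.

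The other collagens held the largest single falls. Type VIII collagen forms hexagonal sheets under the endothelium of vessels and cornea. Its chain gene col8a1a was measured at 23.8, 23.4, 17.7, 13.99 and 8.59 CPM in WT replicates 1 to 5, 2.04, 2.498, 1.21, 1.399 and 2.25 in ALDH3A1KO, 8.64, 5.28, 5.22, 5.34 and 5.85 in GLO1KO, and 4.18, 4.47, 4.39, 4.296 and 3.71 in DKO. The WT values spread widely, with replicate 5 at the bottom and inside the GLO1KO range, while all ALDH3A1KO values were below 3 CPM. Col8a1a fell by 9.31-fold in ALDH3A1KO (log2 fold change -3.22, SE 0.25, edgeR adjusted p = 3.38e-09), with -1.53 (SE 0.23) in GLO1KO and -2.05 (SE 0.24) in DKO. The other type VIII genes, col8a2 and the one listed as col8a1, fell with -1.01 (SE 0.18) and -0.56 (SE 0.19) in ALDH3A1KO.

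Fibril-coating collagens, called FACITs, bind the surface of fibrils in tendon, fascia and cartilage. Of 12 FACIT genes, which include the type IX chains above, 10 were lower in ALDH3A1KO and 0 higher. Over all genes 32% were lower and 29.4% higher. The gene col12a1 (ENSDARG00000019601) fell with -1.03 (SE 0.12), col12a1 (ENSDARG00000078322) with -0.35 (SE 0.08), col14a1b with -0.23 (SE 0.07), col16a1 with -0.70 (SE 0.08) and col21a1 with -1.27 (SE 0.25). Col14a1 had 0.11 (SE 0.07) and did not pass. Type XIX is known in zebrafish as the product of the stumpy locus, needed for motor axons to grow past a choice point. The gene col19a1 (ENSDARG00000076163) fell with -0.95 (SE 0.12), and col19a1 (ENSDARG00000096073), which had 58 to 120 counts in WT libraries and 4 to 12 in ALDH3A1KO, fell with -3.20 (SE 0.42).

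Membrane-bound and filament-forming collagens were mixed. Type XVII spans the membrane of basal epidermal cells in hemidesmosomes. Its gene col17a1a was measured at 218, 149, 167, 189.5 and 191 CPM in WT replicates 1 to 5, 126, 107, 90.2, 93.5 and 120.1 in ALDH3A1KO, 196, 145, 122, 165 and 169 in GLO1KO, and 204, 192, 239.6, 214 and 213 in DKO. All ALDH3A1KO libraries lay below all WT libraries and below 4 of the 5 GLO1KO libraries, and the log2 fold change was -0.77 (SE 0.12, edgeR adjusted p = 1.93e-05). Col17a1b had -0.06 (SE 0.10), the transmembrane collagen gene col23a1a fell with -0.57 (SE 0.11), and col23a1b had 0.13 (SE 0.14). Type VI collagen forms beaded filaments around muscle fibres, and mutations in its chains cause muscle disease in humans. Of its 5 genes col6a2 rose (0.27, SE 0.09), a call lost when library totals alone set the scale (0.16), and col6a4b fell (-0.60, SE 0.15). The main chains col6a1 and col6a3 had -0.14 (SE 0.09) and 0.14 (SE 0.09), col6a4a had -0.21 (SE 0.12), and these did not pass.

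The 4 type XXVIII genes, related in domain layout to type VI, moved in opposite directions. Col28a2a was measured at 5.31, 4.86, 7.75, 5.62 and 5.18 CPM in WT replicates 1 to 5, 8.21, 9.63, 8.93, 9.07 and 8.89 in ALDH3A1KO, 5.002, 6.99, 6.98, 6.91 and 6.62 in GLO1KO, and 10.1, 8.34, 10.1, 12.1 and 12.7 in DKO. ALDH3A1KO and DKO lay above all WT and GLO1KO libraries, and col28a2a rose with 0.64 (SE 0.13, edgeR adjusted p = 1.36e-04) in ALDH3A1KO and 0.89 (SE 0.13, edgeR adjusted p = 3.73e-06) in DKO, while GLO1KO did not pass (0.18, SE 0.13). Its relatives col28a1a, col28a1b and col28a2b fell in ALDH3A1KO, with -0.68 (SE 0.11), -2.98 (SE 0.48) and -0.79 (SE 0.25). Libraries overlapped for col28a1a (8.07 to 12.4 CPM in WT, 5.77 to 8.42 in ALDH3A1KO). They also overlapped for col28a2b (1.78 to 5.79 CPM in WT, 1.81 to 3.59 in ALDH3A1KO). Col28a1b had 12 to 64 counts in WT libraries and 1 to 9 in ALDH3A1KO.

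When glo1 was lost as well, collagen transcripts were higher than with aldh3a1 lost alone. Of 56 genes, 40 were higher in DKO than in ALDH3A1KO, 0 were lower and 16 did not pass, where 11.1% of all genes were higher and 11.6% lower. The median log2 fold change was 0.39, against -0.0018 for all genes. Of the 56, 29 were higher without overlap of libraries, against 7.1% of all genes, and 28 of the 40 kept the call under each of the 30 alternatives. The other 12 were col4a3, col4a4, col4a6, col6a1, col7a1, col7a1l (ENSDARG00000069692), col8a2, col9a1, col18a1a, col18a1b, col19a1 (ENSDARG00000096073) and col28a1b. By class, 7 of 10 fibrillar, 9 of 10 cartilage, 10 of 12 basement membrane and 14 of 24 other genes were higher. Beside the 0 lower genes, DESeq2 and limma-voom also called 0 lower, and 0 of the 56 had an unadjusted p under 0.05 in that direction in the edgeR test.

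The type I chains, which were only slightly lower in ALDH3A1KO, were higher in DKO by a similar amount each. The log2 fold change of DKO against ALDH3A1KO was 0.37 (SE 0.07) for col1a1, 0.36 (SE 0.07) for col1a1a and 0.33 (SE 0.07) for col1a2, and for col1a1a the DKO libraries were above all WT libraries as well (0.20, edgeR adjusted p = 0.0148 against WT, lost without WT replicate 5 at 0.15 and with library totals alone at 0.05). Of the type V genes col5a1 (0.45, SE 0.08), col5a2 (0.55, SE 0.09) and col5a3b (0.45, SE 0.11) were higher, while col5a2b (0.16, SE 0.26) and col5a3a (-0.39, SE 0.24) did not pass. Cartilage chains were close together, from 0.32 for col9a1 to 0.59 for col9a1b among those that passed. The gene col2a1 (ENSDARG00000069093) had 0.42 (SE 0.07) and col2a1 (ENSDARG00000011407) had 0.41 (SE 0.06), and the latter was above all WT libraries in DKO (0.30 (SE 0.06) against WT).

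The largest differences between DKO and ALDH3A1KO that passed were those of the low-count genes col28a1b (2.07, SE 0.51, edgeR adjusted p = 0.00457) and col19a1 (ENSDARG00000096073) (1.45, SE 0.46, edgeR adjusted p = 0.0257). Neither call was kept under each of the 30 alternatives, where a fit that did not test a gene counts as not kept. That of col19a1 (ENSDARG00000096073) was lost without ALDH3A1KO replicates 1 or 5 (1.27 and 1.37) or DKO replicates 1 or 3 (1.21 and 1.31). It was also lost with limma-voom with sample quality weights. Next came col8a1a (1.16, SE 0.26, edgeR adjusted p = 0.00306), col4a1 (1.01, SE 0.19, edgeR adjusted p = 4.20e-04) and col17a1a (0.98, SE 0.12, edgeR adjusted p = 1.71e-05). Col8a1a and col4a1 in DKO still lay below WT. Col17a1a in DKO had 0.21 (SE 0.12) against WT and did not pass. Its DKO libraries overlapped those of WT and lay above 4 of the 5 GLO1KO libraries. The genes col12a1 (ENSDARG00000019601) (0.67, SE 0.12) and col16a1 (0.69, SE 0.08) were also higher without overlap.

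**Figure D4:**
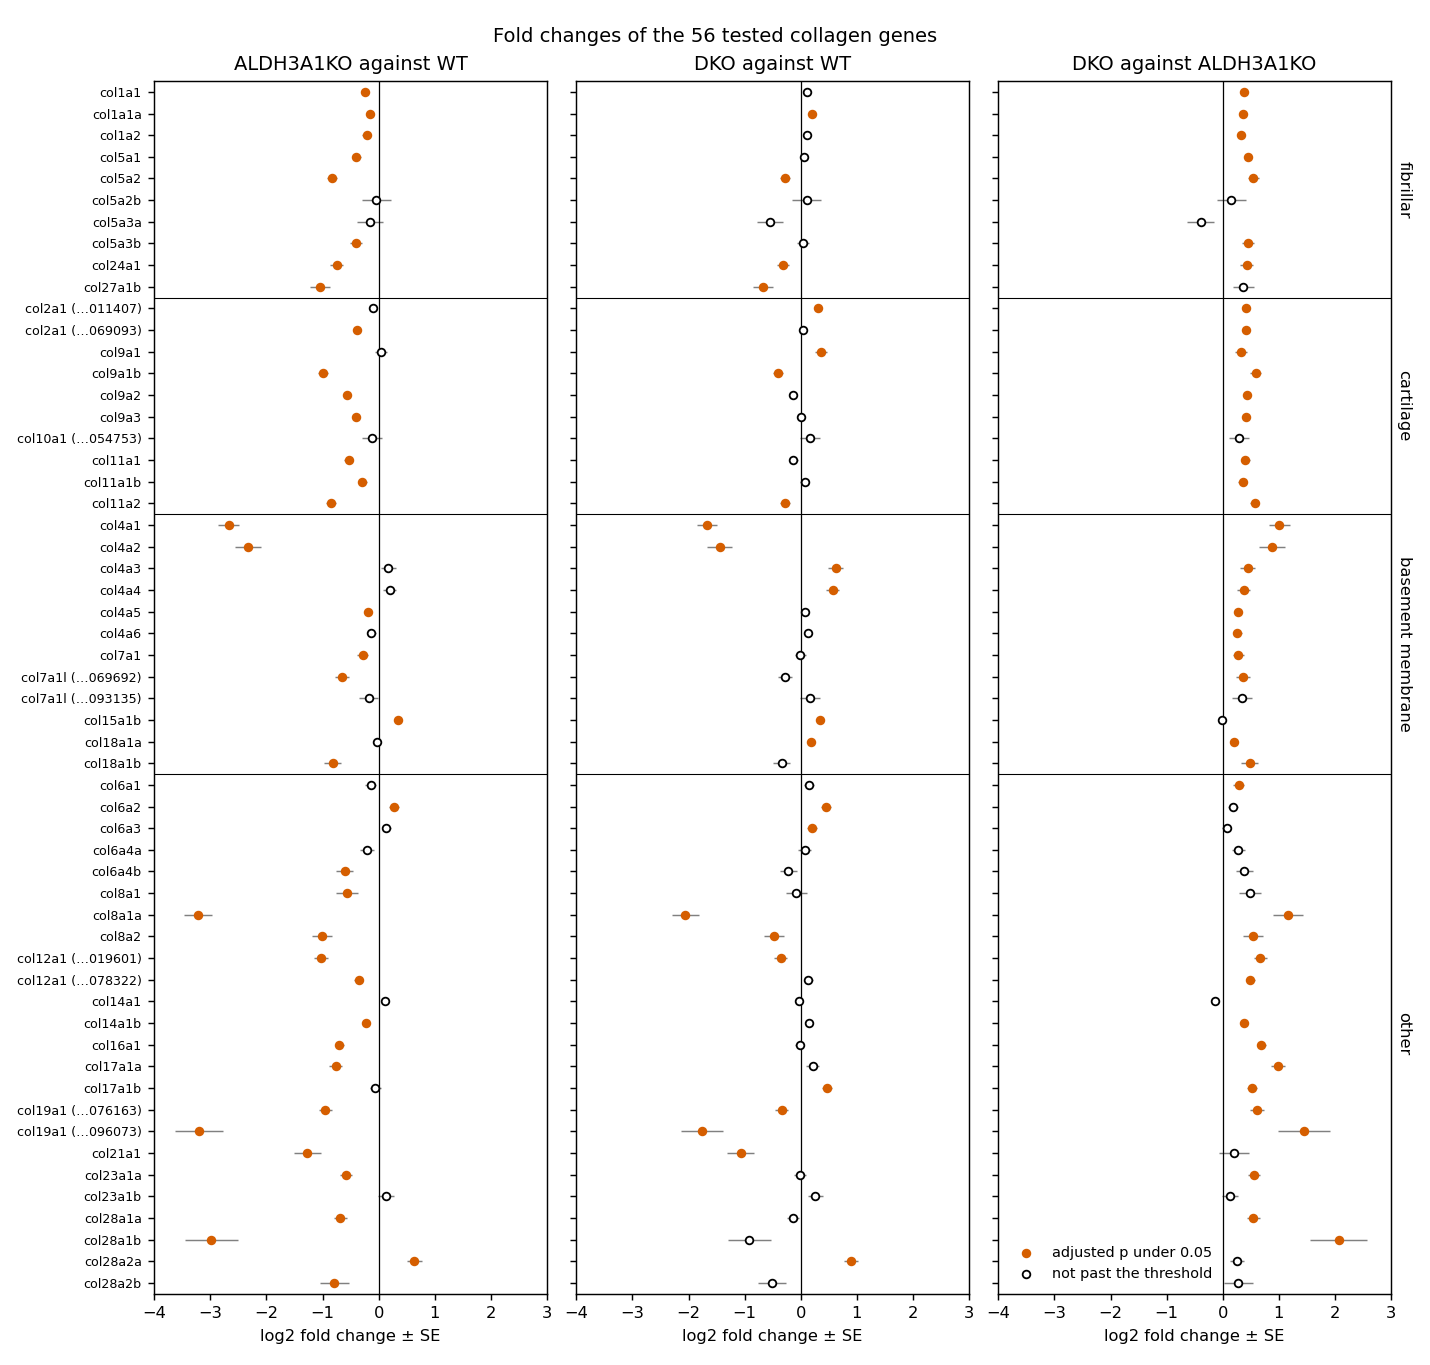
Log2 fold changes with standard errors of the 56 tested collagen genes, by class, in 3 comparisons; filled points passed an adjusted p of 0.05. In ALDH3A1KO against WT 37 points are filled to the left of 0 and 3 to the right, in DKO against WT 13 and 11, and in DKO against ALDH3A1KO 0 and 40; the first and the second share the WT libraries, and the first and the third the ALDH3A1KO libraries.

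The interaction asks whether DKO departs, in log2 units, from the added changes of the single knockouts. It was above 0 for 37 of the 56 collagen genes and below 0 for 1, where 18.7% and 16.9% of all genes passed in these directions, and the median was 0.46 against 0.02 for all genes. It is computed from all 4 genotypes and so shares its libraries with the comparisons above. Of the 37, 33 kept the call under each of the 29 alternatives, and col6a1, col7a1, col7a1l (ENSDARG00000093135) and col11a1b did not. The values ran from 0.29 (SE 0.09) for col2a1 (ENSDARG00000011407) to 2.75 (SE 0.58) for col19a1 (ENSDARG00000096073). Col8a1a had 2.69 (SE 0.35), col4a1 2.04 (SE 0.25) and col9a1b 0.94 (SE 0.13). By class, 8 of 10 fibrillar, 8 of 10 cartilage, 6 of 12 basement membrane and 15 of 24 other genes had an interaction above 0.

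In the reported fit, loss of glo1 alone gave lower and higher calls among the collagens in shares close to those of all genes. In GLO1KO 12 of 56 were lower and 7 higher than in WT, or 21.4% and 12.5%, near the 18.1% and 14.6% of all genes. The median was -0.04 for the collagens and -0.0096 for all genes. Libraries did not overlap for 4 lower and 1 higher of the 56 genes, smaller shares than the 12.5% and 9.76% of all genes. The 7 lower genes that kept the call in each of the 30 alternatives were col4a1, col4a2, col8a1a, col9a1b (-0.36, SE 0.09), col11a2 (-0.29, SE 0.08), col12a1 (ENSDARG00000019601) (-0.51, SE 0.12) and col19a1 (ENSDARG00000096073) (-1.29, SE 0.36). The 2 higher genes that did so were col15a1b and col4a4. The counts depended on single libraries: 7 genes were lower without WT replicate 1 and 16 without WT replicate 5. Higher were 2 without WT replicate 5 or GLO1KO replicate 2, and 3 without WT replicate 4 or GLO1KO replicate 4. Without WT replicate 5 the collagen shares were 28.6% lower and 3.57% higher, against 17.5% and 13.6% of all genes. With library totals alone as the scale they were 39.3% and 3.57%, against 25.8% and 7.23%. The shares were therefore not close to those of all genes in each setting. The calls not kept throughout were those of col7a1l (ENSDARG00000069692), col27a1b, col28a2b, col19a1 (ENSDARG00000076163) and col21a1 among the lower genes, and of col4a3, col4a6, col6a2, col6a3 and col9a1 among the higher ones.

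In DKO 13 collagen genes were lower and 11 higher than in WT, or 23.2% and 19.6%, against 26.4% and 23.9% of all genes. Libraries did not overlap for 7 lower and 8 higher of the 56 genes, against 19.2% and 15.2% of all genes. The medians were 0.02 for the collagens and 0.01 for all genes. The lower genes that kept the call in each of the 30 alternatives were col4a1, col4a2, col8a1a, col5a2 (-0.28, SE 0.09), col27a1b (-0.67, SE 0.18), col9a1b (-0.40, SE 0.09), col11a2 (-0.28, SE 0.08), col19a1 (ENSDARG00000096073) and col21a1 (-1.07, SE 0.24). The higher genes that did so were col15a1b, col28a2a, col4a3, col4a4, col2a1 (ENSDARG00000011407), col17a1b (0.47, SE 0.10) and col6a2 (0.46, SE 0.09). With library totals alone as the scale, which lowers the median of all genes in DKO to -0.14, 22 collagen genes were lower and 7 higher. These were 39.3% and 12.5%, near the 36.8% and 11.4% of all genes at that scale. Without WT replicate 5, 19 were lower. The collagen shares were then 33.9% lower and 14.3% higher, against 25.7% and 22.8% of all genes. The calls not kept throughout were those of col12a1 (ENSDARG00000019601), col19a1 (ENSDARG00000076163), col8a2 and col24a1, all lower, and of col1a1a, col18a1a, col6a3 and col9a1, all higher.

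Few collagen genes passed between DKO and GLO1KO, with 1 (1.79%) lower and 4 (7.14%) higher in DKO, against 6.82% and 4.52% of all genes. Libraries did not overlap for 1 lower and 3 higher of the 56 genes, against 6.21% and 4.48% of all genes. Col28a2a was the one that kept its call in each of the 30 alternatives, at 0.71 (SE 0.13, edgeR adjusted p = 0.00106). Col4a1 was lower at -0.63 (SE 0.17, edgeR adjusted p = 0.0207), a call lost without GLO1KO replicates 1 or 5 (-0.57 and -0.59) or DKO replicates 4 or 5 (-0.54 and -0.59). Col17a1a (0.42, SE 0.12), col14a1b (0.26, SE 0.07) and col7a1l (ENSDARG00000093135) (0.58, SE 0.18) were higher. Col17a1a lost the call without GLO1KO replicates 2, 3 or 5 or DKO replicates 3, 4 or 5 (0.33 to 0.44), and col14a1b without GLO1KO replicates 3 or 5 or DKO replicate 4 (0.23 to 0.24). The gene col7a1l (ENSDARG00000093135) lost it without GLO1KO replicates 2 to 5 or DKO replicates 1 or 5 (0.41 to 0.63).

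Genes that build, hold or cut collagen were counted from lists of partners, to be read against the 32% lower and 29.4% higher of all genes in ALDH3A1KO. Enzymes and chaperones of collagen modification and secretion lay near these shares, with 11 of 28 (39.3%) lower and 7 (25%) higher. Plod2, a lysyl hydroxylase, fell with -1.45 (SE 0.15, edgeR adjusted p = 1.42e-08) and sec24d, a coat protein that exports procollagen from the endoplasmic reticulum, with -1.02 (SE 0.12, edgeR adjusted p = 9.25e-08). Ppib, a prolyl isomerase, rose with 0.29 (SE 0.05, edgeR adjusted p = 4.22e-05) and kdelr2a, a receptor that returns chaperones to the endoplasmic reticulum, with 0.33 (SE 0.07). In procollagen processing and cross-linking 13 of 22 (59.1%) were lower and 1 (4.55%) higher. Pxdn, the peroxidase that cross-links type IV collagen, fell (-2.23, SE 0.21, edgeR adjusted p = 5.66e-09), as did the transglutaminase gene tgm2 (ENSDARG00000070157) (-1.16, SE 0.19). The higher one was pcolce2 (ENSDARG00000055575), which enhances procollagen cleavage (0.29, SE 0.09), a call lost with library totals alone (0.19). Of the degradation genes and inhibitors 13 of 22 (59.1%) were lower and 0 higher, with reck, a membrane inhibitor of matrix metalloproteinases, at -1.23 (SE 0.10) and mmp15 (ENSDARG00000051962), a membrane metalloproteinase, at -1.47 (SE 0.13).

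Collagen receptors were lower for 10 of 14 (71.4%) in ALDH3A1KO and higher for 0, against 32% and 29.4% of all genes. Both beta 1 integrin copies fell, itgb1 (ENSDARG00000053232) with -1.92 (SE 0.16, edgeR adjusted p = 7.58e-10) and itgb1 (ENSDARG00000104484) with -2.06 (SE 0.18, edgeR adjusted p = 1.82e-09). Of the basement membrane partners 15 of 25 (60%) were lower and 4 (16%) higher. Frem3, of the Fraser complex, fell with -2.66 (SE 0.20) and lamb2, a laminin chain, with -1.26 (SE 0.10), while agrn, which encodes agrin, rose with 0.41 (SE 0.06) and frem2 (ENSDARG00000076856), also of the Fraser complex, with 0.38 (SE 0.11). Fibril-associated and matrix partners were lower for 18 of 35 (51.4%) and higher for 4 (11.4%), with acanb, an aggrecan of cartilage, at -3.84 (SE 0.38) and the fibronectin gene fn1 (ENSDARG00000006526) at -1.24 (SE 0.11). Among those that rose were the small proteoglycan genes lum (0.38, SE 0.10) and ogn (ENSDARG00000044132) (0.33, SE 0.08). Regulators were lower for 15 of 34 (44.1%) and higher for 4 (11.8%), with tgfb2 at -1.93 (SE 0.20) and sox9 (ENSDARG00000003293), a cartilage transcription factor that acts on col2a1, at -1.32 (SE 0.13). Those that rose included smad3 (ENSDARG00000036096), a carrier of TGF-beta signals (0.29, SE 0.07), and prrx1 (ENSDARG00000042027), a mesenchymal transcription factor (0.40, SE 0.10).

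In DKO against ALDH3A1KO these lists were higher for 14 of 25 basement membrane partners, 15 of 35 fibril-associated partners, 8 of 14 receptors, 10 of 34 regulators, 7 of 28 modification genes, 7 of 22 degradation genes and 5 of 22 processing genes, or 22.7% to 57.1% of a list, against 11.1% of all genes. Lower, against 11.6% of all genes, were 2 basement membrane partners and 1 modification gene. In DKO against WT, where 26.4% of all genes were lower and 23.9% higher, 13 of 25 basement membrane partners were lower and 4 higher, 10 and 0 of 22 degradation genes, and 7 and 3 of 14 receptors. The other lists lay closer to these shares, with 9 lower and 6 higher of 35 fibril-associated partners, 8 and 8 of 28 modification genes, 6 and 4 of 22 processing genes, and 8 and 7 of 34 regulators. The beta 1 integrin itgb1 (ENSDARG00000053232) had -0.90 (SE 0.15) there and pxdn -1.59 (SE 0.21). In GLO1KO against WT 18.1% of all genes were lower and 14.6% higher. Lower and higher in that comparison were 6 and 0 of 14 receptors, 9 and 1 of 22 degradation genes, and 8 and 1 of 25 basement membrane partners. Closer to these shares were fibril-associated partners (6 and 3 of 35), modification genes (6 and 2 of 28), processing genes (3 and 3 of 22) and regulators (6 and 4 of 34).

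**Figure D5:**
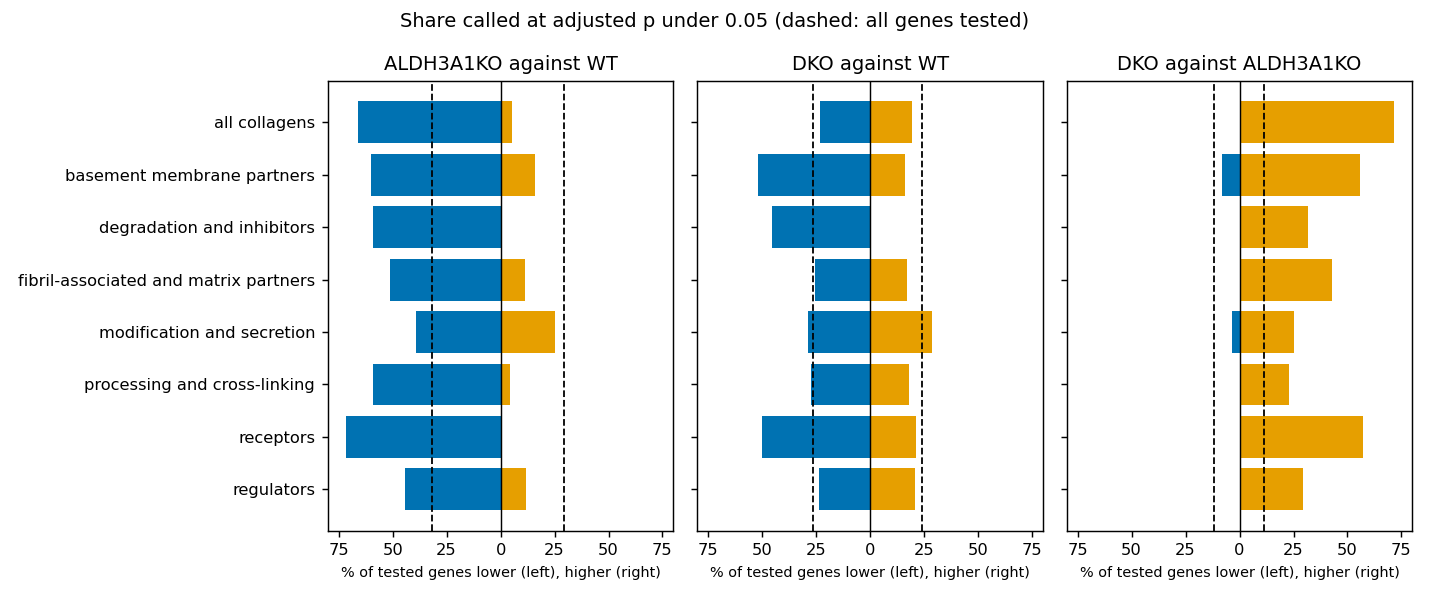
Bars give the percent of tested genes called lower (left) and higher (right) for the collagens and 7 partner lists in 3 comparisons; dashed lines give the same over all genes tested. The collagen bars reach 66.1% lower in ALDH3A1KO against WT and 71.4% higher in DKO against ALDH3A1KO.

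Markers of some cell types moved beside the collagens, where 32% of all genes were lower and 29.4% higher in ALDH3A1KO. In ALDH3A1KO 9 of 10 fast muscle markers were lower and 0 higher, and their summed level lay at 19676 to 31377 CPM against 38689 to 46369 in WT. The notochord list, tbxta, tbxtb, noto, shha, cav3 and cavin1b with their matched copies, includes caveolar genes also found in muscle, so it is not specific to notochord. Its genes were lower for 4 of 8 and higher for 1 (summed 80.9 to 96.3 CPM against 111 to 143). Cartilage markers were lower for 7 of 13 and higher for 2 (489 to 624 against 568 to 686). Fibroblast and tendon markers were lower for 5 of 14 and higher for 3 (633 to 775 against 728 to 885), and bone markers lower for 2 of 7 and higher for 2 (17.5 to 23.1 against 24.1 to 31.9). Markers of endothelium, the cell layer that carries the line's reporter, were lower for 3 of 8 and higher for 2 (114 to 131 against 118 to 133). The shares of bone, endothelial and fibroblast and tendon markers that were lower, 28.6%, 37.5% and 35.7%, lay near that of all genes. Epidermal markers were lower for 0 of 8 and higher for 2 (23483 to 27698 against 18784 to 24111). Lens markers were lower for 3 of 8 in ALDH3A1KO, a share (37.5%) also near that of all genes, and higher for 0. They were higher than in WT for 8 of 8 in GLO1KO and in DKO, against 14.6% and 23.9% of all genes. In DKO against ALDH3A1KO 11.1% of all genes were higher and 11.6% lower. Higher there were 9 of 10 fast muscle, 8 of 8 lens, 5 of 13 cartilage, 6 of 14 fibroblast and tendon and 2 of 8 notochord markers. So were 2 of 7 bone, 2 of 8 epidermal and 1 of 8 endothelial markers, and 0 of each list were lower. The endothelial share, 12.5%, lay near that of all genes. The summed fast muscle level in DKO was 37635 to 50573 CPM, which overlaps WT, and the epidermal sum was 26708 to 31415, above WT. The part of these markers in the collagen results was not tested. Some markers, such as acanb of cartilage and lum of fibroblasts and tendon, also stand in the partner lists, so the lists are not independent.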

How the data were processed

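RNA-seq of 20 libraries was used, 5 per genotype by the labels, with 35092716 to 37190519 counts each. The deposited values are raw counts per gene, made by the authors with featureCounts 2.0.3 on GRCz11, per the submitters' processing notes. Libraries were strand-specific mRNA libraries made from total RNA, per the labels. The sources used here do not give the aligner, annotation release or strand setting, so reads shared between paralogs or antisense genes could not be told apart. Symbols were matched by Ensembl ID for 29201 of 32520 IDs, and IDs that share a symbol are printed with their ID. Neighbouring genes were read from RefSeq's GRCz12tu table, from which no coordinates are used. Counts of aldh3a1 were not analysed here.

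Genes were filtered with filterByExpr, leaving 22234 that hold 99.97% of counts, scaled by TMM and tested with edgeR 4.0.16 in R 4.3.3 (quasi-likelihood, robust, all 20 libraries, no covariates, common biological coefficient of variation 0.13). P-values were adjusted by Benjamini-Hochberg over all genes tested, with a threshold of 0.05. SE is the size of the log2 fold change over the square root of F. The interaction is DKO minus ALDH3A1KO minus GLO1KO plus WT. Alternatives were RLE, upper quartile and library-total scaling, DESeq2 1.42.0, limma-voom (limma 3.58.1), other filters, only the genotypes compared, no robust estimation, a replicate block and each library left out. A call counted as not kept also where an alternative did not test the gene. Figures were drawn with matplotlib 3.10.9 in Python 3.11.15, and the test was tried on simulated data.

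Partner and marker genes were matched by symbol, case ignored, then by the stem without its paralog letter. The members and lists were chosen with earlier results of these data known. Named by rule were, per class, the 5 collagens of highest mean CPM, up to 3 per direction and comparison with WT that passed without overlap, and those of at least 1 CPM that passed the interaction; of partners, up to 2 per direction, list and comparison with WT. The 10 collagens outside the rule are given for completeness. The labels do not say that libraries came from separate clutches, so the spread behind the p-values may be technical.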

Additional observations from a re-analysis of the deposited data

Results flagged for a closer look

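Single libraries stood far from the other 4 of their genotype for 11 of 188 combinations of gene and genotype checked, by the gap to the nearest library over the whole range (Dixon's test). Chance gives about 1 in 20 such gaps. Col15a1b had its lowest GLO1KO value in replicate 5, at 64.4 CPM, with the other 4 at 72.4 to 75.3. Col9a2 had its lowest DKO value in replicate 1, at 313 CPM, with the other 4 at 350.2 to 360.2. Col11a2 had its highest DKO value in replicate 3, at 184 CPM, with the other 4 at 168 to 170.0. Col28a2a had its highest WT value in replicate 3, at 7.75 CPM, with the other 4 at 4.86 to 5.62. Col28a2a had its lowest GLO1KO value in replicate 1, at 5.002 CPM, with the other 4 at 6.62 to 6.99. Col8a1a had its highest GLO1KO value in replicate 1, at 8.64 CPM, with the other 4 at 5.22 to 5.85. Col16a1 had its highest ALDH3A1KO value in replicate 1, at 28.5 CPM, with the other 4 at 25.5 to 26.3. Col21a1 had its highest GLO1KO value in replicate 3, at 1.42 CPM, with the other 4 at 0.875 to 0.973. Col19a1 (ENSDARG00000076163) had its highest GLO1KO value in replicate 1, at 11.8 CPM, with the other 4 at 9.62 to 10.2. Col28a1a had its lowest WT value in replicate 5, at 8.07 CPM, with the other 4 at 11.99 to 12.4. Col28a2b had its highest ALDH3A1KO value in replicate 2, at 3.59 CPM, with the other 4 at 1.81 to 2.24.

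For 37 named collagen genes the change that came with loss of aldh3a1 differed between larvae with and without glo1, by the edgeR interaction test at an adjusted p under 0.05 over all genes. On the log2 scale the interaction was col4a1 (2.04), col4a2 (1.84), col7a1 (0.39), col7a1l (ENSDARG00000069692) (0.72), col7a1l (ENSDARG00000093135) (0.76), col15a1b (-0.42), col18a1b (0.70), col2a1 (ENSDARG00000011407) (0.29) and col2a1 (ENSDARG00000069093) (0.38). The interaction also passed for col9a1b (0.94), col9a2 (0.60), col9a3 (0.54), col11a1 (0.58), col11a1b (0.32), col11a2 (0.86), col1a1 (0.37), col1a1a (0.32) and col1a2 (0.33). Further values were those of col5a1 (0.42), col5a2 (0.69), col5a3b (0.53), col24a1 (0.69), col27a1b (0.82), col6a1 (0.36), col6a4b (0.69), col8a1a (2.69) and col8a2 (0.77). The same test passed for col12a1 (ENSDARG00000019601) (1.18), col12a1 (ENSDARG00000078322) (0.44), col14a1b (0.50), col16a1 (0.81), col17a1a (1.18), col19a1 (ENSDARG00000076163) (0.91), col19a1 (ENSDARG00000096073) (2.75), col23a1a (0.74) and col28a1a (0.48). Last came col28a2b (1.102).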

How the results depend on the processing

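Counts of collagen genes called lower in ALDH3A1KO (33 to 38 with 1 library left out), higher in DKO than in ALDH3A1KO (34 to 40) and with an interaction above 0 (34 to 38) stayed within 1.5 times the reported counts in all alternatives. The 3 higher in ALDH3A1KO became 3 to 5 with 1 library left out and 2 with library totals alone (3.57%, against 21% of all genes). With 1 library left out, GLO1KO against WT gave 7 to 16 lower and 2 to 7 higher, DKO against WT 10 to 19 lower and 8 to 12 higher, and DKO against GLO1KO 0 to 2 lower and 1 to 6 higher. Library totals alone as the scale move the median of all genes to -0.11 in ALDH3A1KO, -0.11 in GLO1KO and -0.14 in DKO against WT. In GLO1KO they gave 22 lower (39.3%) and 2 higher (3.57%), against 25.8% and 7.23% of all genes. In DKO they gave 22 lower (39.3%) and 7 higher (12.5%), against 36.8% and 11.4%. In DKO against GLO1KO they gave 2 lower and 2 higher (3.57% each), against 9.19% and 2.72%. They also turned ddr1, a collagen receptor, in DKO against WT to -0.0039 (edgeR adjusted p = 0.962, from 0.15). Upper quartile scaling gave 4 higher in GLO1KO (7.14%, against 13.2% of all genes). For DKO against GLO1KO, 2 were lower with upper quartile scaling, DESeq2, limma-voom or a minimum of 1 CPM in 5 libraries. In these 6.88% to 9.58% of all genes were lower. With only the 2 genotypes fitted 4 were lower and 7 higher (7.14% and 12.5%, against 9.26% and 6.48% of all genes). Apart from the change of scale, the cause of these shifts was not tested.

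No clear pairing by replicate number was seen: deviations of 30 same-numbered pairs correlated from -0.16 to 0.25, 5 over 0.1, and 6 of 20 libraries correlated best with their own number. The labels do not say whether a number marks a shared clutch or day, and these correlations cannot settle it. With a replicate block, 36 collagen genes were lower and 3 higher in ALDH3A1KO, 11 and 5 in GLO1KO and 14 and 11 in DKO. The block gave 0 and 38 in DKO against ALDH3A1KO, and 2 and 4 in DKO against GLO1KO. Over all genes the shares were 31.8% and 29%, 17.7% and 14.3%, 26.1% and 23.6%, 11.1% and 10.9%, and 7.25% and 4.46% in that order. The interaction passed for 37 collagen genes above and 1 below 0, against 18.7% and 16.5% of all genes. Genes with low counts, such as col5a2b, col5a3a and col28a1b, have wide errors.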
